A study of Mus musculus with 6 samples.

Results

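Genes for the subunits of the mitochondrial respiratory chain and the ATP synthase were followed in L929 cells, an established mouse fibroblast line, labelled as wild type or as knockout of STING. Nuclear genes were chosen by symbol in the deposited gene table: Nduf followed by a, b, c, s or v and a number, Sdha to Sdhd, and symbols that begin with Uqcr, Cox4 to Cox8 or Atp5. The protein-coding genes of mitochondrial DNA were added, and names holding -ps were left out. The rule gave 83 nuclear and 13 mitochondrially encoded genes, 96 of the 27507 gene identifiers in the table. The table lists the mitochondrial genes without the mt- prefix (ND1, COX1, CYTB and so on), so they were matched by Ensembl identifier to their GENCODE M21 names (mt-Nd1, mt-Co1, mt-Cytb). Cytochrome c1 (Cyc1), cytochrome c (Cycs) and the assembly factors fall outside the rule and were read as separate lists.

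The study compared 3 control libraries, whose genotype label is WT, with 3 libraries labelled STING KO, which the series text gives as Sting-/-. The STING protein relays signals of the DNA sensor cGAS from the endoplasmic reticulum. Poly(A) RNA was purified on oligo(dT) beads from TRIzol extracts, and the labels name no treatment. The sources used here do not say how the knockout was made, whether the cells are 1 clone, or whether replicates are separate cultures. The spread that p-values measure is thus that of these samples and may be technical.

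The chain passes electrons from NADH (complex I) or succinate (complex II) through complex III and cytochrome c to oxygen at complex IV. Complexes I, III and IV pump protons, and the ATP synthase, complex V, uses the resulting gradient to make ATP. Complexes I, III, IV and V are mosaics of nuclear and mitochondrially encoded proteins, while all subunits of complex II are nuclear. Fibroblast lines in culture draw on both glycolysis and respiration. Several complex IV subunits exist as paired genes, one expressed broadly and the other in heart, muscle, lung or testis.

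The values are normalized counts, gene counts that the authors divided by a size factor of each sample, and the libraries held 14382072 to 14526606 of them. STING RNA itself (Tmem173 in the table) was at 329, 313 and 311 in control against 82.1, 80.6 and 93.4 in STING KO (limma log2 fold change -1.90, SE 0.09, adjusted p = 9.72e-06). All 14 fibroblast markers on a fixed list were detected, with sums of 222454 to 253525 per library. Means under 10 were found for 9 of 13 macrophage and leukocyte, 6 of 8 brown adipocyte and 5 of 10 epithelial and endothelial markers. The others were higher, and the highest of these lists were Cd68 at 670 to 860, Ppargc1a at 95.4 to 150 and Krt8 at 413 to 547. Control replicate 3 and STING KO replicate 1 stood apart with hepatocyte transcripts: the sums over 18 such genes were 10794 and 10254 there and 4795 to 5300 in the other libraries. Ass1, at 4124 to 4884 in every library, made up most of the sum in those other libraries. Alb was at 2780 in control replicate 3 and 2552 in STING KO replicate 1, against 101 to 268 elsewhere. The first principal component of all tested genes held 40.3% of the variance and ran from control replicate 3 (-21.7) to STING KO replicate 3 (21.1), with control replicate 2 at 15.2. It did not separate the groups.

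No respiratory chain gene was called different between STING KO and control. Of the 96 genes, 89 reached the minimum of 10 normalized counts in at least 3 libraries. The lowest value of any of them in any library was 21.8, so none entered through 1 group alone. limma called 0 of the 89 at a Benjamini-Hochberg adjusted p of 0.05, against 32 of 12408 tested genes (0.258%, all lower in STING KO). The smallest adjusted p of a member was 0.722. At an unadjusted p at or under 0.05 there were 6 members, against 6.37% of all tested genes. These 6 were nuclear and higher in STING KO, the direction of 3.2% of all tested genes at that p, while 0 members were lower, against 3.18%. In the authors' deposited table, of 92 members with an adjusted p, 0 were past 0.05, against 41 of 13942 genes (0.294%), and the smallest was 0.587, for Ndufv3.

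The intervals were narrow. The 95% interval of the fold change lay within 1.5-fold in both directions for 86 of the 89 genes (85.4% of all tested genes) and within 2-fold for 89 of 89 (95.1% of all). The 3 genes with wider intervals were mt-Nd3 (log2 interval -0.74 to 0.24), mt-Nd4l (-0.07 to 0.70) and Cox7a1 (-0.01 to 0.63). The sign of the differences was uneven: 71 of the 76 tested nuclear genes and 6 of the 13 mitochondrial genes had a positive log2 fold change, against 49.2% of all tested genes. The median was 0.11 for the nuclear genes, -0.03 for the mitochondrial genes and -0.00 for all genes.

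**Figure D1:**
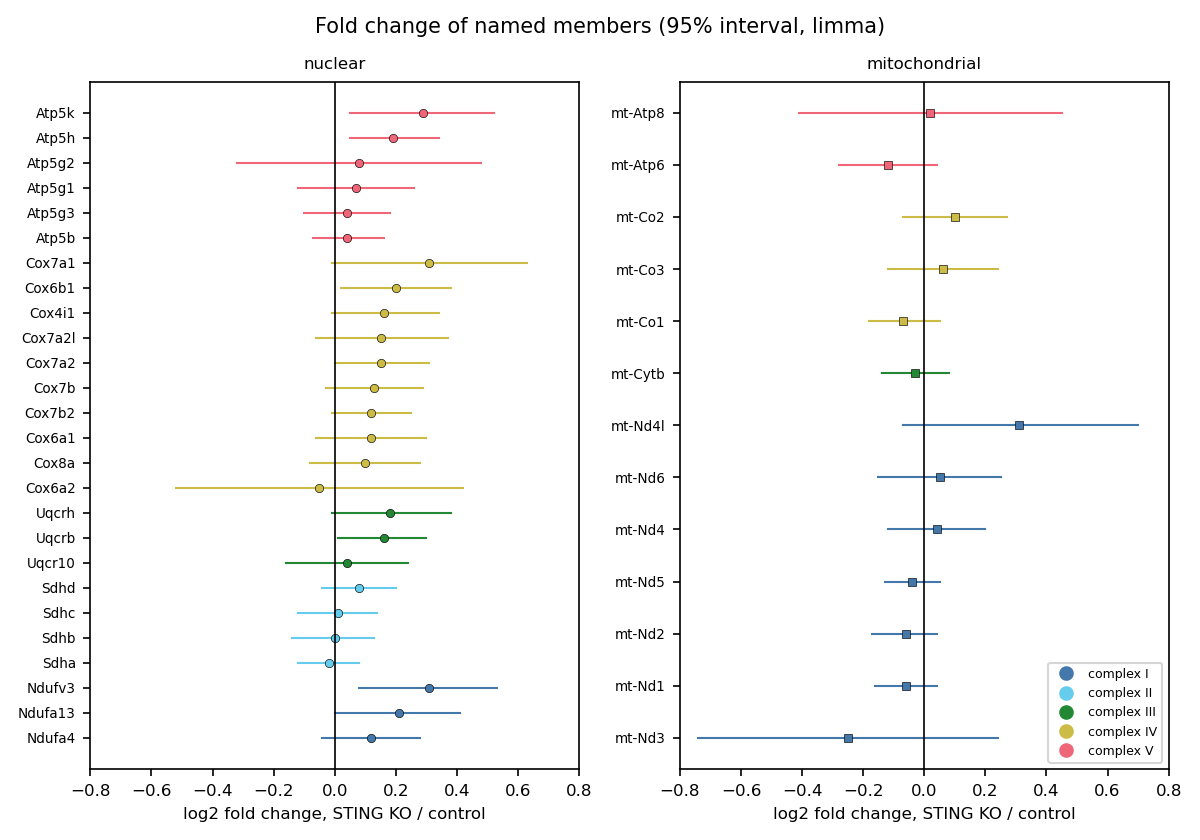
Log2 fold change, STING KO over control (horizontal axis) for the 39 tested members that are named by rule, 1 gene per line, with the 95% interval from limma as a bar and complexes in colour. The 26 nuclear genes (circles) lie mostly to the right of 0, at -0.05 to 0.31, and the 13 mitochondrial genes (squares) on both sides, at -0.25 to 0.31, with 0 genes called.

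Complex I, the NADH dehydrogenase, had the most members. Of its 36 nuclear genes 35 were tested, 34 of them with a positive log2 fold change, and the median was 0.12. The smallest p belonged to Ndufv3, an accessory subunit of the NADH-binding module (protein coding, chr17:31520115-31531331 on the plus strand, GRCm38). It was at 1402, 1719 and 1375 normalized counts in control against 1779, 1692 and 2080 in STING KO. The groups overlapped, since control replicate 2 lay above STING KO replicate 2. The log2 fold change was 0.31 (SE 0.10, unadjusted p = 0.0129, limma adjusted p = 0.722). Ndufa13, also known as the cell death regulator GRIM-19, was at 1973, 2172 and 1893 in control against 2173, 2131 and 2697 in STING KO. Its log2 fold change was 0.21 (SE 0.09, adjusted p = 0.738), and STING KO replicate 3 was the highest of the 6 libraries.

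Ndufs1, the largest core subunit of complex I and a carrier of iron-sulfur clusters, was at 1773, 1709 and 1608 in control against 1697, 1707 and 1674 in STING KO. Ndufc1 was the 1 nuclear complex I gene whose groups did not overlap, at 733, 748 and 644 against 760, 763 and 882 (log2 fold change 0.18, adjusted p = 0.738). Over the 89 genes, 7 had groups that did not overlap, each with STING KO higher, against 5.76% of all tested genes in that direction and 6.32% in the other. Besides Ndufc1 these were Uqcrb, Uqcrfs1, Cox7b2, Atp5h, Atp5k and mt-Nd4l.

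Complex II, succinate dehydrogenase, is the chain's link to the citric acid cycle, and its genes lay closest to no difference. The catalytic flavoprotein gene Sdha was at 4099, 4066 and 3881 in control against 3905, 4031 and 3964 in the knockout (log2 fold change -0.02, 95% interval -0.12 to 0.08). The iron-sulfur subunit gene Sdhb was at 2094, 2146 and 1931 against 1978, 2005 and 2177 (-0.00). Of the membrane anchors, Sdhc was at 1821, 1973 and 1771 against 1902, 1790 and 1901 (0.01), and Sdhd at 2441, 2622 and 2504 against 2537, 2668 and 2771 (0.08). In each of the 4 genes the groups overlapped, and the limma adjusted p ran from 0.742 for Sdhd to 0.991 for Sdhb. The median of complex II was 0.00, and 2 of its 4 genes had a positive sign. Its transcripts are longer, at a median of 2066 bases against 547 to 875 for tested nuclear genes of complexes I, III, IV and V.

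In complex III, the cytochrome bc1 complex, 7 of 8 nuclear genes were tested, and 7 had a positive log2 fold change (0.04 to 0.20, median 0.13). Uqcrb, the ubiquinone-binding protein gene, was at 937, 1034 and 951 in control against 1078, 1036 and 1140 in STING KO. These groups touched without overlapping (log2 fold change 0.16, SE 0.06, unadjusted p = 0.0346, limma adjusted p = 0.738). Of its transcript, 43.4% of the 50-base words also occur in transcripts of other genes, so its reads may be shared with them. Uqcrh, the hinge protein gene, was at 1648, 1862 and 1558 against 1784, 1829 and 2141 (0.18, adjusted p = 0.738). Uqcr10, the most abundant nuclear complex III gene per length, was at 1804, 2207 and 1792 against 1902, 1868 and 2178 (0.04), and control replicate 2 was its highest library. Uqcrfs1, the Rieske iron-sulfur protein gene, had groups that did not overlap at a small difference, 2324, 2378 and 2338 against 2393, 2385 and 2477 (0.04, SE 0.05).

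In complex IV, cytochrome c oxidase, 14 of 18 nuclear genes were tested and 13 had a positive log2 fold change (median 0.12). Cox6b1, which faces the intermembrane space where cytochrome c docks, was at 3856, 4459 and 3783 in control against 4318, 4472 and 5108 in STING KO. Its log2 fold change was 0.20 (SE 0.08, unadjusted p = 0.0322, limma adjusted p = 0.738), with control replicate 2 inside the STING KO range. Cox7a2 was at 2016, 2177 and 1953 against 2293, 2089 and 2464 (0.15, adjusted p = 0.738). The largest value in the complex, 0.31 for Cox7a1, came with an SE of 0.14 at 111 to 172 normalized counts.

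In complex V, the ATP synthase, 16 of 17 nuclear genes were tested and 15 had a positive log2 fold change (median 0.09). The most abundant was Atp5b, the catalytic beta subunit of the F1 head, at 35576, 36591 and 33860 in control against 35253, 35332 and 38656 in STING KO (0.04, 95% interval -0.07 to 0.16). The 4 tested genes of the F1 head lay between 0.04 and 0.12. Atp5h, subunit d of the peripheral stalk (chr11:115415689-115419962 on the minus strand, GRCm38), was at 1419, 1575 and 1433 against 1686, 1580 and 1802, with no overlap. Its log2 fold change was 0.19 (SE 0.07, unadjusted p = 0.0157, limma adjusted p = 0.732). Atp5k, subunit e, supports dimers of the synthase in the cristae (chr5:108433244-108434448, minus strand). It was at 990, 996 and 890 against 1055, 1075 and 1400 (0.29, SE 0.10, adjusted p = 0.738). STING KO replicate 3 was high in both genes. Of the Atp5h transcript 47.9% of the 50-base words recur in other genes, and of Atp5k 1.2%.

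The nuclear genes varied together between libraries of the same group. Relative to the control mean, the mean log2 value of the 76 tested nuclear genes was -0.02, 0.11 and -0.09 in the control libraries and 0.06, 0.02 and 0.24 in the STING KO libraries. Control replicate 2 thus lay above STING KO replicates 1 and 2, and the groups overlapped. Of these 76 genes, 67 had their highest value in STING KO replicate 3 and 61 their lowest in control replicate 3, against 3520 and 2658 of all 12408 tested genes. Complexes I, III, IV and V each had this order at both ends, from between -0.10 and -0.07 in control replicate 3 to between 0.23 and 0.28 in STING KO replicate 3. Complex II spanned only -0.05 to 0.06. Without STING KO replicate 3 the nuclear median was 0.04 and 56 of 76 genes were positive, and without control replicate 3 these were 0.06 and 64. Without control replicate 2 the median was 0.17, with 74 of 76 genes positive. Without both libraries that hold the most hepatocyte transcripts (control replicate 3 and STING KO replicate 1) the median was 0.08, with 66 of 76 positive. The mitochondrial median stayed between -0.06 and -0.02 in all 16 alternatives, and 0 members were called in any of them.

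**Figure D2:**
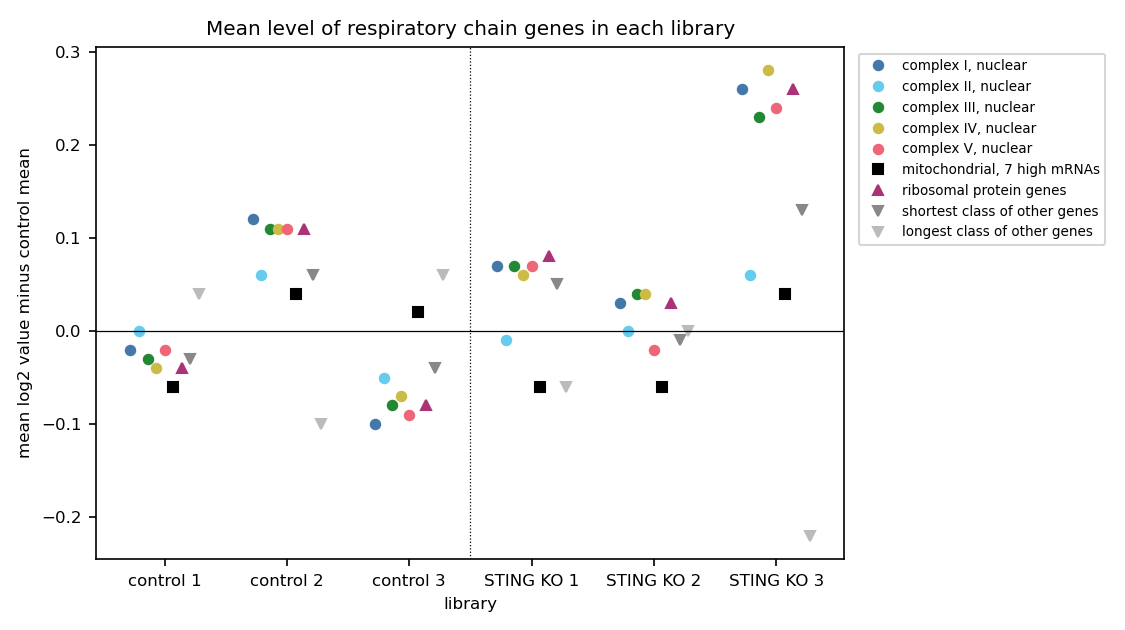
Mean log2 value of gene groups in each library, minus the mean of the control libraries (vertical axis), for the 6 libraries (horizontal axis); each point is 1 group in 1 library. Nuclear genes of complexes I, III, IV and V are highest in STING KO 3 (0.23 to 0.28) and lowest in control 3 (-0.10 to -0.07), as are ribosomal protein genes, and the longest class of other genes is lowest in STING KO 3 (-0.22).

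Transcript length moved with the same libraries. Among tested genes that are not members, the shortest of 10 length classes (median 901 bases) had 900 of 1178 genes with a positive log2 fold change and a median of 0.08. The longest class (median 7910 bases) had 211 of 1241 and a median of -0.09. Nuclear respiratory genes are short, with a median of 787 bases against 2926 for all tested genes. Within them the shorter transcripts had a median of 0.12 and the longer ones 0.09. Ribosomal protein genes, which are equally short (median 878 bases), had 77 of 83 positive at a median of 0.14. Their library means were -0.04, 0.11 and -0.08 in control against 0.08, 0.03 and 0.26 in STING KO. With the trend of GC content and length removed from each library, the nuclear median was 0.05, 62 of 76 genes were positive, and 0 members were called. Complex II transcripts are longer, at a median of 2066 bases. The length classes of other genes nearest to that, at medians of 1869 and 2270 bases, had median log2 fold changes of 0.04 and 0.02. The part of length in the low median of complex II was not tested.

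**Figure D3:**
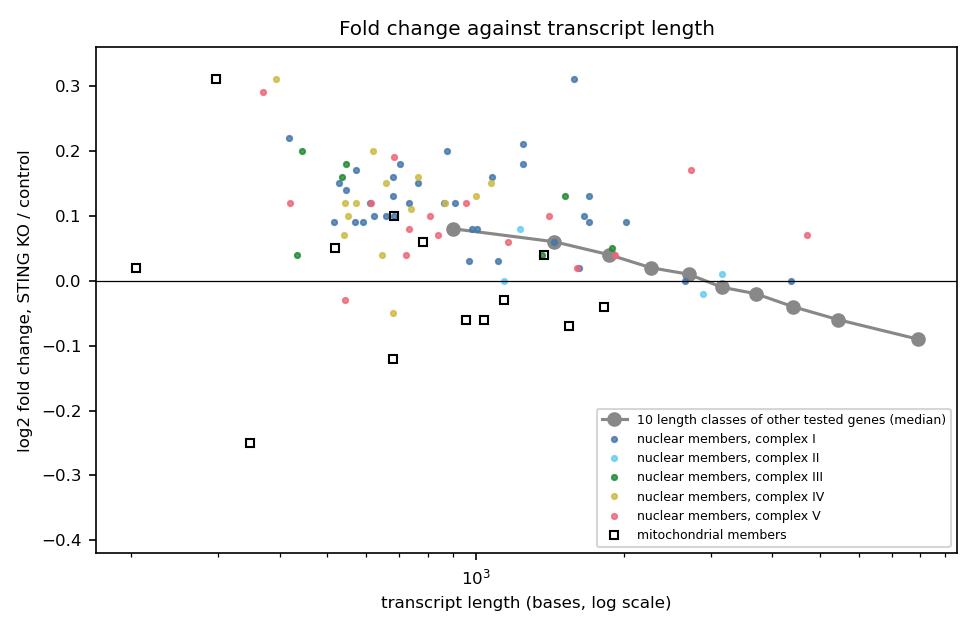
Log2 fold change, STING KO over control (vertical axis) against transcript length in bases (horizontal log axis) for the tested members, with the medians of 10 length classes of the other tested genes as grey points and line. The grey medians go from 0.08 at 901 bases to -0.09 at 7910 bases, and most nuclear members lie at the short end.

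As a share of all normalized counts, the 83 nuclear genes held 1.25 ± 0.0736% in the control libraries and 1.34 ± 0.0924% in those of STING KO (SD, n = 3 each). By library the shares were 1.24%, 1.33% and 1.18% against 1.30%, 1.27% and 1.44%, so they overlapped. Counting nuclear genes only, complex V held the largest share of any complex, 0.489 ± 0.0231% and 0.512 ± 0.0322% (SD, n = 3 each). The nuclear genes of complex I held 0.363 ± 0.0253% and 0.393 ± 0.0305% (SD, n = 3 each). Complex II held 0.0723 ± 0.0022% and 0.073 ± 0.00146% (SD, n = 3 each). In bulk RNA, fewer cells of a type and less RNA per cell cannot be told apart.

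Levels per length differed between nuclear genes of the same complex. The ratio of the highest to the lowest tested gene was 3.59 in complex II and 4.07 in complex III. It was 60.7 in complex V, 68.6 in complex I and 186 in complex IV. The lowest there were Atp5g1 and Ndufb2, with annotated transcripts of 4715 and 4371 bases, and Cox6a2. Per kb of transcript, using the principal GENCODE transcript of each gene, the tested nuclear genes ran from 74 normalized counts (Cox6a2) to 18725 (Atp5b) over the 6 libraries. The order within complex IV began with Cox8a at 13730 per kb, Cox6a1 at 8758, Cox6b1 at 7011 and Cox4i1 at 6748. The ranges over libraries overlapped between Cox6a1 (7847 to 10258) and Cox6b1 (6121 to 8266) and between Cox6b1 and Cox4i1 (5858 to 7806). Within libraries, Cox6a1 lay above Cox6b1 and Cox6b1 above Cox4i1 in 6 of 6. Cox8a itself was at 6967, 7971 and 6918 normalized counts in control against 7832, 7036 and 8586 in the knockout (log2 fold change 0.10). In complex I the most abundant per length was Ndufa4, at 5176, a protein known to sit in complex IV despite its name. It had 2962, 3201 and 2908 normalized counts against 3053, 3161 and 3660 (log2 fold change 0.12). The next genes were Ndufb9 at 3578 and Ndufa8 at 3529 per kb, and Ndufb9 was the higher of them in 3 of 6 libraries. Complex III was led by Uqcr10 at 4513 per kb and complex II by Sdhd at 2104.

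Of the 96 genes, 7 nuclear ones were below the minimum. Among them are 3 that encode central subunits of their complexes. Ndufs3, a core subunit of complex I, was listed at 0 in 5 libraries and at 0.993 in control replicate 3. Atp5a1, the alpha subunit of the F1 head, was listed at 0, 0.998 and 0.993 in control against 0, 0.996 and 0 in STING KO. Per kb of transcript this is 0.201 normalized counts, beside 18725 for Atp5b of the same F1 head. Uqcrc1, a core protein of complex III, was listed at 12, 5.99 and 2.98 against 7.92, 7.96 and 0, or 3.71 per kb beside 1108 for its partner Uqcrc2. The table also lists Gapdh, a gene that nearly all cells use, at 163 to 228, so a low listing may not give the level of the RNA. Of the 50-base words of Ndufs3, Atp5a1 and Uqcrc1, 39.7%, 3.3% and 0.0% recur in other genes. The cause of the low listings was not tested, and no fold is given for these genes.

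Of the paired genes of complex IV, the broadly expressed form had the higher listed value per length. A low listing of the other form may not give its level, as for Ndufs3 and Atp5a1. Cox4i1 was at 4741, 5390 and 4481 in control against 5295, 5095 and 5972 in STING KO, while its hypoxia-linked partner Cox4i2 was at 3.99, 0.998 and 5.96 against 5.94, 5.97 and 4.02. Cox6a1 was at 4708, 5167 and 4480 against 5000, 4793 and 5857, and the heart and muscle form Cox6a2 at 37.9, 55.9 and 60.6 against 48.5, 41.8 and 57.2. Per kb, Cox4i1 stood at 6748 normalized counts and Cox4i2 at 6.11, and Cox6a1 at 8758 and Cox6a2 at 74. The testis form Cox6b2 was at 0, 0 and 0.993 against 2.97, 1.99 and 1, the heart and muscle form Cox8b at 5.99, 3.99 and 5.96 against 10.9, 4.98 and 8.03, and the testis form Cox8c was listed at 0 in all libraries. Per kb these came to 1.98 for Cox6b2, beside 7011 for Cox6b1, and 18.4 for Cox8b, beside 13730 for Cox8a. These 3 genes and Cox4i2 complete the 7 that were not tested.

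In the Cox7a family, Cox7a2 was joined by the supercomplex factor Cox7a2l at 1168, 1344 and 1075 in control against 1222, 1273 and 1485 in STING KO. The heart and muscle form Cox7a1 was at 117, 122 and 111 against 116, 151 and 172. Per kb the 3 stood at 3286 for Cox7a2, 1172 for Cox7a2l and 334 for Cox7a1. For Cox7a1, STING KO replicate 1 lay inside the control range, and the limma adjusted p was 0.738. Of 12 fixed heart and skeletal muscle markers, 9 had a mean under 10 normalized counts, the creatine kinase gene Ckm among them at 0 to 0.998. The others were higher, with Des at 568 to 702, Tnnt2 at 220 to 317 and Acta1 at 12.9 to 34.9.

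Cox7b2 was listed much nearer to its partner than the other minor forms. It is known mainly from testis, yet it was at 871, 946 and 877 in control against 959, 969 and 1007 in the knockout (log2 fold change 0.12, SE 0.06, adjusted p = 0.738). Its partner Cox7b was at 1817, 1907 and 1627 against 1837, 1922 and 2082. Per length, with annotated transcripts of 542 bases for Cox7b2 and 1001 for Cox7b, they were close. Cox7b2 stood at 1731 normalized counts per kb (1606 to 1858 over the libraries) and Cox7b at 1863 (1626 to 2080). These ranges overlapped, with Cox7b the higher in 6 of 6 libraries. None of the 50-base words of Cox7b2 recur in other genes. Of 9 fixed testis germ cell markers, 8 had a mean under 10. The other, Cyct, was at 14 to 23.8, and the sum over all 9 was 21.8 to 30.8 per library. The gene lies at chr5:71442824-71548205 on the minus strand (GRCm38).

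The c ring of the ATP synthase is encoded by Atp5g1, Atp5g2 and Atp5g3, whose mature proteins are identical. Per kb of transcript Atp5g3 led at 6964 normalized counts, with Atp5g2 at 1181 and Atp5g1, whose annotated transcript is 4715 bases long, at 309. Atp5g3 was at 4906, 5327 and 4687 in control against 5010, 4844 and 5438 in STING KO. Atp5g1 was at 1383, 1537 and 1341 against 1587, 1309 and 1573. Atp5g2 was at 749, 997 and 751 against 773, 721 and 1189, high in control replicate 2 and STING KO replicate 3, and 87.4% of its 50-base words recur in other genes. The log2 fold changes were 0.04, 0.07 and 0.08, with limma adjusted p of 0.869, 0.819 and 0.899.

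**Figure D4:**
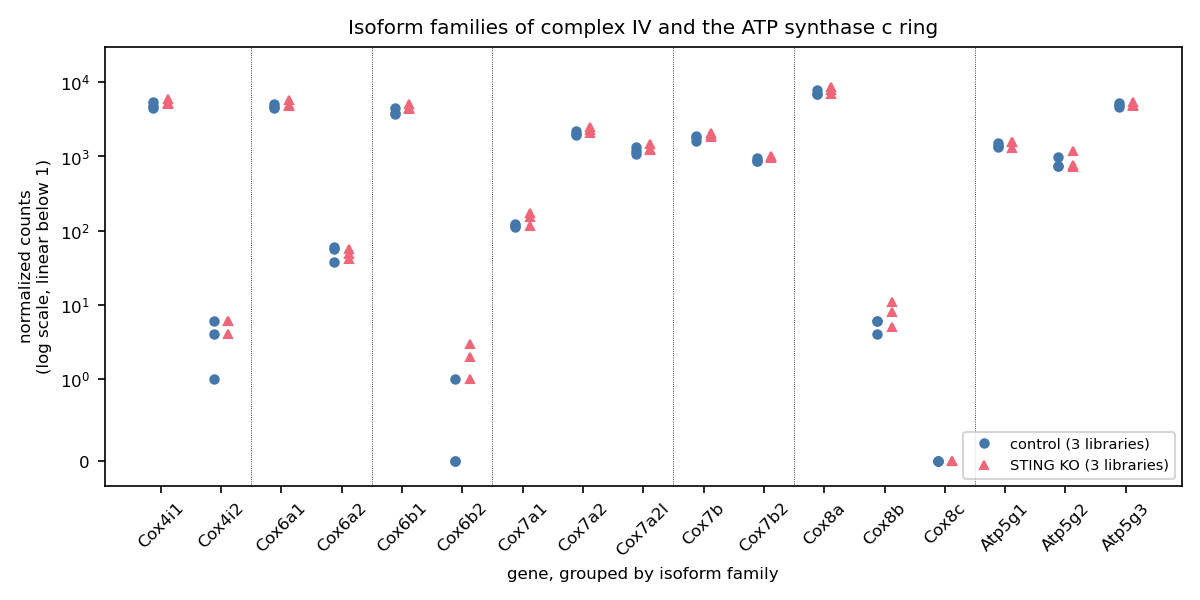
Normalized counts (vertical log axis, linear below 1) of the paired genes of complex IV and the c ring genes, 1 point per library, with control as circles and STING KO as triangles. Cox4i2, Cox6b2, Cox8b and Cox8c lie at or near 0 beside partners at or above 3783, and Cox7b2 lies at 871 to 1007 beside Cox7b at 1627 to 2082.

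The mitochondrially encoded genes held 3.52 ± 0.0907% of all normalized counts in the control libraries and 3.43 ± 0.0701% in those of STING KO (SD, n = 3 each), with libraries at 3.41%, 3.57% and 3.57% against 3.38%, 3.39% and 3.51%. They fell into separate ranges of abundance: 7 genes stood above 10000 normalized counts and 6 below 1000 in every library. The 7 abundant genes had log2 fold changes of -0.07 to 0.05, with library means of -0.06, 0.04 and 0.02 in control against -0.06, -0.06 and 0.04 in STING KO.

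Of the complex I genes, mt-Nd1 was at 93619, 98511 and 95199 in control against 89104, 90084 and 96555 in the knockout (log2 fold change -0.06, 95% interval -0.16 to 0.04). mt-Nd2 was at 35083, 36889 and 37970 against 34112, 34898 and 36225 (-0.06), and mt-Nd5 at 67871, 71756 and 70729 against 67956, 66995 and 69460 (-0.04). The groups overlapped in each of these genes for subunits of the membrane arm. mt-Nd4 was at 38127, 43847 and 39871 against 39817, 39434 and 45988 (0.04). mt-Nd6 was at 25366, 30064 and 29101 against 27678, 26608 and 33278 (0.05). mt-Nd6 is the 1 mitochondrial member on the minus strand (chrM:13552-14070), and it overlaps the end of mt-Nd5 (chrM:11742-13565). For the counting, the strand setting is not given in the sources used here. It is thus not known whether reads of opposite strands were told apart, over the whole of mt-Nd6 and not only in that overlap. The listed values of mt-Nd6 may include reads of the other strand.

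The cytochrome b gene mt-Cytb, the mitochondrial gene of complex III, was at 110641, 121154 and 117033 in control against 110663, 111325 and 118822 in the knockout (log2 fold change -0.03, 95% interval -0.14 to 0.08). mt-Co1, the catalytic subunit of complex IV, was at 120261, 114526 and 123408 against 117090, 117398 and 107785 (-0.07, -0.18 to 0.05). Both had overlapping groups. STING KO replicate 3 was the lowest library for mt-Co1, while it was the highest for mt-Nd4 and mt-Nd6. Per kb, mt-Cytb had the highest mean at 100472 normalized counts, followed by mt-Nd1 at 98062 and mt-Co1 at 75563. The ranges over libraries overlapped between mt-Cytb (96714 to 105904) and mt-Nd1 (93107 to 102937).

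The 6 scarce genes were mt-Co2 and mt-Co3 of complex IV, mt-Atp6 and mt-Atp8 of complex V, and mt-Nd3 and mt-Nd4l of complex I. mt-Co2, which receives electrons from cytochrome c, was at 411, 407 and 420 in control against 473, 401 and 457 in the knockout (log2 fold change 0.10). mt-Co3 was at 387, 379 and 345 against 371, 369 and 418 (0.06), and the proton channel gene mt-Atp6 at 384, 346 and 382 against 338, 336 and 347 (-0.12). In these genes too the groups overlapped. mt-Atp8 was at 70.9, 60.9 and 73.5 against 92, 54.8 and 65.3 (0.02), and mt-Nd3 at 34.9, 33.9 and 26.8 against 21.8, 26.9 and 32.1 (-0.25, SE 0.22).

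mt-Nd4l was the 1 mitochondrial gene without overlap, at 28, 30.9 and 30.8 in control against 36.6, 40.8 and 34.1 in the knockout (log2 fold change 0.31, SE 0.17, limma adjusted p = 0.738). It shares a bicistronic mRNA with mt-Nd4, as mt-Atp8 does with mt-Atp6. Yet per kb mt-Nd4l stood at 113 normalized counts and mt-Nd4 at 29884. The 6 scarce genes ran from 84.5 per kb (mt-Nd3) to 626 (mt-Co2), and the abundant ones from 29884 to 100472.

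Copies of several of the scarce genes, and of 2 abundant ones, lie in the nuclear genome. Nuclear chromosome 1 carries a copy of a stretch of mitochondrial DNA, annotated in GENCODE M21 as a run of unprocessed pseudogenes on the minus strand (chr1:24611535-24616197, GRCm38). They copy part of mt-Nd4 (Gm28439), mt-Nd4l (Gm10222), mt-Nd3 (Gm28438), mt-Co3 (Gm28437), mt-Atp6 (Gm10925), mt-Co2 (Gm28661) and part of mt-Co1 (Gm29216). In ungapped alignment, 5 of the 7 pseudogenes had 0 differences from the mitochondrial gene: Gm28439 over 876 bases, Gm10222 over 294, Gm28437 over 783, Gm10925 over 678 and Gm28661 over 681. Gm28438 differed at 1 of 345 bases and Gm29216 at 6 of 492. The share of 50-base words found in transcripts of other genes was 100% for mt-Co2, 99.9% for mt-Co3, 99.5% for mt-Atp6, 98.8% for mt-Nd4l and 98.0% for mt-Nd3.

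The first 60 bases of mt-Co2 (chrM:7013-7072) are shown with those of Gm28661, since no base tells the copies apart. For mt-Nd3 (chrM:9459-9491) and mt-Co1 (chrM:6381-6423) the stretches that hold the differences are shown, with the differing bases in capitals. Positions count from 1 at the first base of the mitochondrial gene.
mt-Co2: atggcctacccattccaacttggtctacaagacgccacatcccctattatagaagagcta
Gm28661: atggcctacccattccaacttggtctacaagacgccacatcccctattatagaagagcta
mt-Nd3: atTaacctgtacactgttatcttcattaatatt
Gm28438: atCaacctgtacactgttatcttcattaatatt
mt-Co1: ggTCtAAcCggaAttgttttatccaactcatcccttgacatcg
Gm29216: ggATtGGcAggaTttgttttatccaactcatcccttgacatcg
The mt-Nd3 difference is T3C. Those of mt-Co1 are T1056A, C1057T, A1059G, A1060G, C1062A and A1066T, all near the start of the copied part.

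Among the abundant genes, 62.2% of the words of mt-Nd4 and 51.1% of mt-Co1 recur in other genes, 8.2% of mt-Nd2, 7.6% of mt-Nd5 and 0.0% of mt-Nd1, mt-Nd6 and mt-Cytb. mt-Atp8 also had 0.0%, but it lies between mt-Co2 and mt-Atp6 (chrM:7766-7969), where the chromosome 1 copy carries no annotated transcript to compare. Of the 7 pseudogenes, 0 have a row in the table. How the authors' counting placed reads that match more than 1 locus is not given in the sources used here, and the part of the copies in the low values was not tested. Differences between genes of mitochondrial DNA are therefore given as listed values, and only STING KO was compared with control within a gene.

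**Figure D5:**
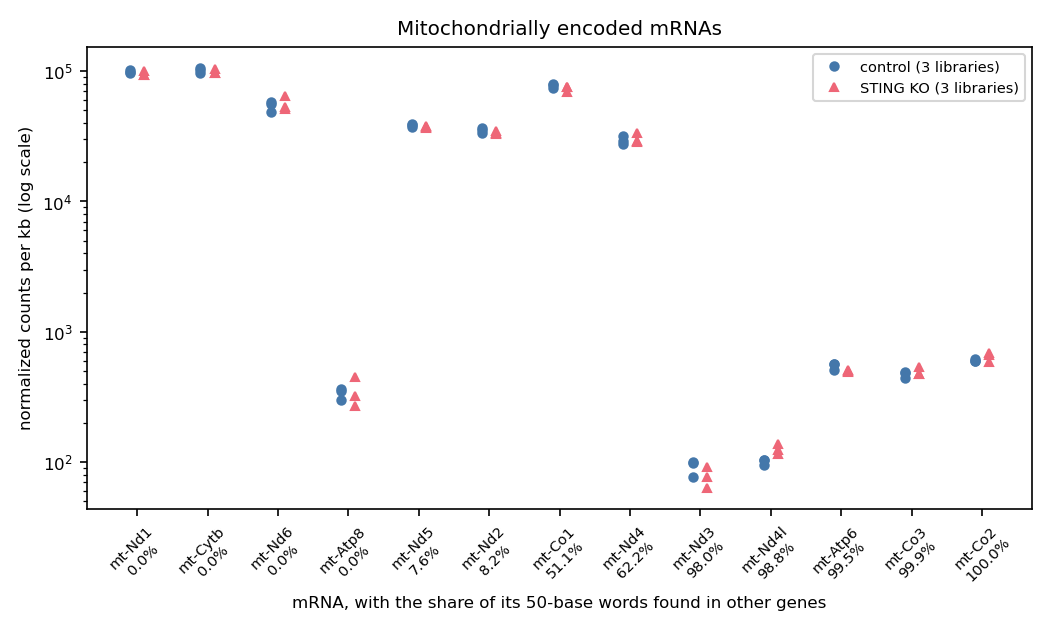
Normalized counts per kb (vertical log axis) of the 13 mitochondrially encoded mRNAs, 1 point per library, ordered by the share of their 50-base words that recur in other genes (given under each name). The 5 mRNAs at 98.0% or more lie under 1000 per kb, as does mt-Atp8, and the other 7 lie above 10000, with control (circles) and STING KO (triangles) side by side.

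Promoters of the nuclear genes were read because several factors are known to bind them in common: NRF1, GABPA (NRF2), YY1 and the estrogen-related receptors. RefSeq windows on GRCm38.p6, from 250 bases before to 50 after a start, were found for 68 of the 83 nuclear genes (73 windows). Letters of an NRF1 site, GCGC, any 2 bases and GCGC, read on either strand like the others, stood in 19 member windows (26.0%), against 6.23% of all 32851 windows. Those of GABPA, ACCGGAAG, stood in 9.59% against 2.30%, those of YY1, AANATGGCG, in 13.7% against 2.38%, and those of the estrogen-related receptors, TCAAGGTCA, in 2.74% against 0.423%. TATAAA stood in 12.3% against 13.6%. No matches of different motifs overlapped in a member window. The member windows are richer in G and C, at a median of 57.3% against 52.7%, and these matches are letters, not measured binding. The NRF1 letters were found for 18 of the 68 genes. They were absent from the windows of Ndufa13, Cox6b1 and Cox7a2, which also have smallest p-values in their complexes. Stretches around the NRF1 letters, in capitals, are shown for both complex V genes with the smallest p. These are Atp5h at chr11:115420036-115420120 and Atp5k at chr5:108434425-108434509, each on the minus strand.
Atp5h: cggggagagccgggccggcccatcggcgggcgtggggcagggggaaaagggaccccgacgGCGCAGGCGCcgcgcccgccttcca
Atp5k: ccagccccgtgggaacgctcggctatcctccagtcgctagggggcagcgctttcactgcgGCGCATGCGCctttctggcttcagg

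Genes that build or regulate the chain were read from fixed lists, and limma called 0 in each list. Among 12 tested transcription factor genes, 5 had a positive and 7 a negative log2 fold change (median -0.08). Pprc1, a coactivator of the PGC-1 family, had the smallest p, at 2513, 2523 and 2463 in control against 2360, 2131 and 2297 in the knockout (log2 fold change -0.15, SE 0.05, adjusted p = 0.738). Genes for copying and transcribing mitochondrial DNA had 8 positive and 15 negative (median -0.02). In that list Mterf4, which supports mitochondrial ribosome assembly, was at 200, 215 and 195 against 258, 241 and 256 (0.31, SE 0.08, adjusted p = 0.465). Tfam, the packaging and transcription factor of mitochondrial DNA, was at 669, 709 and 710 against 692, 688 and 708.

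Assembly factors are not part of the finished complexes but build them. Those of complex I had a median of 0.03 (10 of 15 positive), those of complex II -0.03 (2 of 4), those of complex III 0.05 (4 of 6), those of complex IV 0.02 (10 of 19) and those of the ATP synthase 0.07 (3 of 4). Cmc1, which stabilizes newly made mt-Co1 protein, was at 184, 215 and 196 in control against 238, 238 and 234 in STING KO (0.26, adjusted p = 0.728). The complex III factor Uqcc3 was at 227, 232 and 254 against 280, 276 and 278 (0.23, adjusted p = 0.732), and the complex I factor Tmem126b at 391, 402 and 376 against 445, 450 and 425 (0.18, adjusted p = 0.738). In these 3 genes the groups did not overlap. Of all 48 tested assembly factors, 6 had groups without overlap and STING KO higher and 4 had STING KO lower, against 5.76% and 6.32% of all tested genes. Sdhaf4 was at 74.9, 63.8 and 62.6 against 75.2, 84.6 and 70.3 (0.19, adjusted p = 0.742), and the ATP synthase inhibitor gene Atpif1 at 1457, 1731 and 1345 against 1485, 1586 and 1852 (0.12, adjusted p = 0.753).

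The list of chain genes outside the name rule had 12 rows, of which 1, Usmg5, is the member Atp5md under its GENCODE name. Of the other 11, 9 had a positive sign (median 0.05). Cyc1, the heme-bearing electron donor to cytochrome c, was at 4081, 4417 and 3899 in control against 4216, 4002 and 4597 in STING KO (0.05), and cytochrome c itself (Cycs) at 570, 617 and 613 against 649, 627 and 664 (0.11). Citric acid cycle enzymes outside complex II had 12 of 21 positive at a median of 0.01. Pdk1, the kinase that inhibits pyruvate dehydrogenase, was at 1491, 1490 and 1537 against 1629, 1882 and 1584 (0.17, adjusted p = 0.738).

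The hypoxia-linked list had the largest median of the 10 lists of respiratory and related genes, 0.17 over 7 tested genes, 6 of them positive. It shares Ndufa4l2, Higd1a and Pdk1 with other lists. Its mean log2 value was -0.01, 0.03 and -0.01 in control against 0.16, 0.24 and 0.27 in STING KO. Ndufa4l2, a paralog of Ndufa4 that lowers complex I activity in hypoxia, was at 172, 242 and 177 normalized counts in control against 283, 276 and 367 in STING KO. The groups did not overlap (197 ± 39.4 against 308 ± 50.4, SD, n = 3 each), and the log2 fold change was 0.65 (SE 0.15, limma adjusted p = 0.326). Over 16 alternatives the value was 0.52 to 0.81 and the adjusted p 0.0372 to 1. It passed the threshold in 2 of them, with the GC and length trend removed (adjusted p = 0.0372) and without control replicate 2 (adjusted p = 0.047). Higd1a, another gene of hypoxia that binds complex IV, was at 940, 897 and 800 against 977, 1039 and 1126 (0.25, adjusted p = 0.653).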

How the data were processed

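RNA-seq values of 3 control and 3 STING KO libraries were read from 1 deposited gene table, with groups and replicate numbers from the sample titles. Its sample columns hold a signal, gene counts that the authors divided by a size factor per library, as read from the values, in which 100% of the values above 0 are whole multiples of 1 step within 0.01. Per the file headers, the table also holds the authors' log2 fold change, its score (a Wald statistic), p-value and adjusted p-value. By the submitters' processing notes, builds were GRCm38 and mm10 and the tools DESeq2 1.4.5, RSEM 1.2.12, Bowtie2 2.2.5 and HISAT2 2.0.4, with no role given. The sources used here give neither annotation nor strand setting. Of 27821 rows, 314 repeat an identifier and were left out, and 27480 of 27507 identifiers are in GENCODE M21 (GRCm38), which gave coordinates and lengths.

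A mean-variance trend model from limma 3.58.1 (R 4.3.3) was fitted to log2(normalized count + 0.1) for genes with at least 10 in at least 3 libraries, over all genes, without covariates. Such fold changes can understate the change of low genes. The fit was also run on simulated counts. Beyond library totals these held no variation shared between genes, so they cannot show how the fit behaves under it. Groups of members got counts, medians and library means only, with no test. Shared words are runs of 50 bases of a transcript found in transcripts of another gene. Named with all values were the mitochondrial genes, complex II, the paired genes, per complex the most abundant per length and the 2 smallest p, and per list the smallest p. Ndufc1, Ndufs1, Uqcrfs1, Tfam, Cyc1, Cycs, Higd1a and the members below the minimum were named outside this rule, after their values were seen. The members and lists were chosen with earlier results of these data known. Alternatives were another pseudocount, no filter, TMM and equal totals, limma-voom, a replicate block, removal of GC and length trends, leaving out libraries, and the authors' test.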

Additional observations from a re-analysis of the deposited data

How the results depend on the processing

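Under each of 16 alternatives 0 members were called, with the smallest adjusted p of a member at 0.199 to 1. The 128 group medians under an alternative stayed within 1 SD between libraries of the reported ones. For the nuclear genes this SD was 0.114, against a median of 0.11, so the criterion could not show a loss of that difference. Their median ran from 0.04 without STING KO replicate 3 to 0.17 without control replicate 2. Of 768 values of the tested genes among the 51 named by rule, 766 kept their side of the threshold and 2, both of Ndufa4l2, newly passed it. Of these values 35, none past the threshold, changed sign. Cox4i2, Cox6b2 and Cox8b were not tested and gave no value, and genes named outside the rule were not counted. The 32 genes called over the whole table became 63 (8 higher, 55 lower) with the GC and length trend removed, 12 without control replicate 3 and STING KO replicate 1, and 21 to 35 with 1 library left out. Replicate numbers were not taken as pairs in the main fit: the same number gave correlations of -0.183, -0.18 and -0.488 between control and STING KO deviations. Deviations from the mean of so few libraries cannot show whether samples of the same number were handled together. A fit with the replicate block had 18 called genes (0 higher) and 0 called members (smallest member adjusted p = 0.959). Count tests on whole reads were not run, because the values are normalized and the reads were not recovered. Depth limits genes with few counts: mt-Nd3, at 21.8 to 34.9 normalized counts, had an SE of 0.22 on the log2 scale.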
